A study of Mus musculus with 4 samples.

Results

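Integrins are cell surface receptors made of 1 alpha and 1 beta subunit, and laminins are basement membrane proteins made of 1 alpha, 1 beta and 1 gamma chain. Their genes were followed in skeletal progenitors sorted from the hindlimbs of mice at postnatal day 1. Genes were taken by name from the protein-coding genes of the deposited count table, which gave 35 of 55487 genes, namely 25 integrin genes (17 alpha and 8 beta subunits) and 10 laminin genes (5 alpha, 3 beta and 2 gamma chains). This naming rule uses no measured value.

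There were 4 libraries of polyadenylated RNA, cKO 2, cKO 3, WT 2 and WT 3, from live GFP-positive cells that were negative for CD45, Tie2 and Ter119. All carried the Rosa26mTmG reporter, which turns from red to green fluorescence where Cre recombinase has acted. In the study, Prx1-cre, active in limb mesenchyme, deletes Ecsit, a gene needed for assembly of mitochondrial complex I. The labels contradict each other: the genotype field gives EcsitPrx1;Rosa26mTmG to the libraries titled WT and Ecsitfl/fl;Rosa26mTmG to those titled cKO. Ecsit had 33.6 and 30.2 CPM (counts scaled by library size) in the libraries labelled cKO, against 12.6 and 18.9 CPM in those labelled WT. Its log2 fold change was 1.02 (edgeR adjusted p = 0.0245, without the offset for exon length described below). This is opposite to what the titles say, so groups are called here by their titles only, and every direction turns round if the 2 titles were exchanged. Whether a library came from 1 animal or a pool is not given in the sources used here, so p-values measure only the spread between these libraries.

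Total counts ran from 18266573 to 20152872. The libraries labelled cKO were closer to each other (r = 0.992 for log2 CPM across genes) than those labelled WT (r = 0.974). Long genes had lower values in the libraries labelled cKO: among protein-coding genes placed in 10 groups by exon length, the median log2 fold change was 0.73 in the shortest group and -0.76 in the longest. WT 3 stood apart from WT 2 along the same axis, with median log2 differences (WT 3 minus WT 2) of 0.56 in the shortest group and -0.48 in the longest, while cKO 3 minus cKO 2 was -0.02 in both. Since integrin and laminin genes are long, fold changes and calls are also given with an offset for the trend with exon length in each library. With this offset the group medians lay between -0.02 and 0.05 from the fourth shortest group up, but were still 0.41, 0.20 and 0.15 in the 3 shortest. The 12 markers of skeletal progenitors all passed the filter on low counts and summed to 1297 and 1280 CPM in the libraries labelled cKO, against 1500 and 1694 CPM in those labelled WT. Only Runx2 among them was called, and it was lower in the libraries labelled cKO (8.33% of the 12, where 14.3% of all genes tested were lower). With the length offset 2 were lower, Runx2 and Twist2, where 12.3% of all genes were.

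Integrins sort by ligand. In mammals the subunits alpha1, alpha2, alpha10 and alpha11 pair with beta1 and bind collagens; alpha5, alpha8, alpha9, alpha4 and alphaIIb belong to receptors for fibronectin and related matrix or cell surface ligands; alpha3, alpha6 and alpha7, and the beta4 partner of alpha6, make receptors for laminins; alphaL, alphaM, alphaX, alphaD and alphaE with beta2 or beta7 are found on white blood cells. In the limb, integrins anchor mesenchymal cells to their matrix, and laminins line blood vessels, nerves, muscle fibres and skin.

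The 25 integrin genes included 19 that passed the filter on low counts. Of these, 1 was higher and 6 were lower in the libraries labelled cKO (edgeR quasi-likelihood test, Benjamini-Hochberg adjusted p under 0.05). These are 5.26% and 31.6% of the integrin genes tested, where 14.1% of all 16157 genes tested were higher and 14.3% were lower. The median log2 fold change of the 19 was -0.66, against -0.02 over all genes tested. With the length offset, 1 was higher (Itgb3) and 2 were lower (Itga10 and Itgb7), where 17.0% and 12.3% of all genes were, and the median was -0.25. All 10 laminin genes passed the filter, 1 was higher and 1 was lower, and their median was -0.22. With the length offset 4 were higher (Lama2, Lama4, Lamb1 and Lamb3) and 1 was lower (Lama1), and the median was 0.08. The 6 integrin genes that did not pass, Itgad, Itgae, Itgam, Itgax, Itgb2 and Itgb6, had at most 17 counts in any library.

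**Figure D1:**
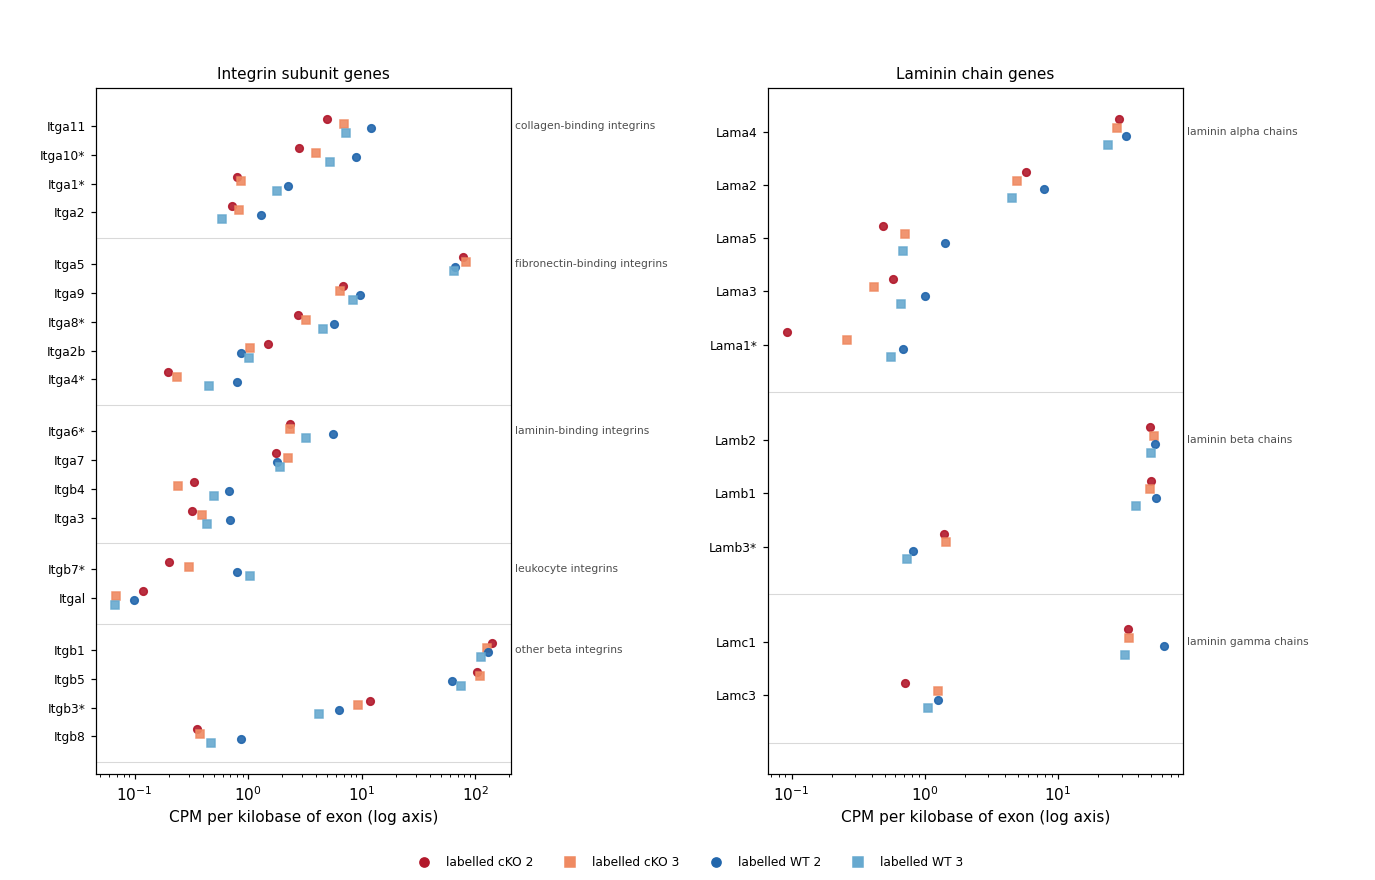
Level of each integrin gene (left) and laminin gene (right) that passed the filter, in CPM per kilobase of exon on a log axis, with 1 point for each library and an asterisk beside genes that were called. Itgb1, Itgb5 and Itga5 lie farthest to the right among integrins. Of the 19 integrin genes shown, 11 have both points labelled cKO to the left of both labelled WT. Among these are Itga1, Itga10, Itga4, Itga8, Itga6 and Itgb7, and a further 4 of the 19 have them to the right. Over all genes tested, 36.2% had both libraries labelled cKO lower and 36.3% had both higher.

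Transcription start regions are shown for the 4 collagen- and fibronectin-binding alpha subunit genes called without the length offset. With the offset, Itga10 alone of these kept its call. The start region of Itga5, the alpha subunit gene with the highest level, not called in either fit, is given beside theirs. Each runs from 250 bases before to 50 bases after the start, 5′ to 3′ on the gene's strand, from the RefSeq table on GRCm38.p6, at chr13:115101915-115102214 (Itga1, minus strand), chr3:96645334-96645633 (Itga10, plus), chr2:79255176-79255475 (Itga4, plus), chr2:12301895-12302194 (Itga8, minus) and chr15:103366742-103367041 (Itga5, minus). Capitals mark the GC box GGGCGG and the RUNX motif TGTGGT or TGCGGT on either strand.
Itga1: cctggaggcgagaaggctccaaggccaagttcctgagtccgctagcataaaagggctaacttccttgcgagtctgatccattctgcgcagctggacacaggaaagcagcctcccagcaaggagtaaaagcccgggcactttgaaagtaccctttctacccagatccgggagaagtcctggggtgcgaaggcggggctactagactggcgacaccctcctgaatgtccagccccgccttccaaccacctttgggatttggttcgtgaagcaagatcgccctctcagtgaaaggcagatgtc
Itga10: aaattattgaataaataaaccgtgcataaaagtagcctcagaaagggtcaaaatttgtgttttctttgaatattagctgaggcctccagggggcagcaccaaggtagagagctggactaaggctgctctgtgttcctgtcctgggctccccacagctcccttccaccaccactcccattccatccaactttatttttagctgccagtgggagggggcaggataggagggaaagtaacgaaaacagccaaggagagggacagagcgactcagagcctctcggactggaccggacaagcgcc
Itga4: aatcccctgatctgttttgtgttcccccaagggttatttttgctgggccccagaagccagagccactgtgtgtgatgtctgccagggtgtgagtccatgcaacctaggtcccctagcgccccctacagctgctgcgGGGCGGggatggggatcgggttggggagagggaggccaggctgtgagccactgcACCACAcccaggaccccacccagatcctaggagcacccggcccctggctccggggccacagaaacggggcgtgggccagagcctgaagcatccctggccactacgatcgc
Itga8: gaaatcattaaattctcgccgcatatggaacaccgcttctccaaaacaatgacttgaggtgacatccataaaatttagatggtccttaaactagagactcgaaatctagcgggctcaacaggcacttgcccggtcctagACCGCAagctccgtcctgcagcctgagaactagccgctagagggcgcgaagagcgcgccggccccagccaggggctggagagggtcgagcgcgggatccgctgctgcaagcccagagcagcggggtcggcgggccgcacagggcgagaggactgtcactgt
Itga5: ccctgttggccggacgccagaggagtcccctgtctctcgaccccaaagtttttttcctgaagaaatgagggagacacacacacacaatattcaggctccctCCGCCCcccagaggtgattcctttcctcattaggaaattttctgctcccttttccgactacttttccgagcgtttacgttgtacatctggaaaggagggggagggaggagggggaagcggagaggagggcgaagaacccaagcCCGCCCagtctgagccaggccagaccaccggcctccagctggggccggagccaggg

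Short motifs were searched on both strands, the GC box, the CCAAT box (CCAAT), the TATA box (TATAAA), the RUNX motif and the AP-1 motif TGANTCA. The start regions of Itga1 and Itga10 held none of them, Itga4 held 1 GC box and 1 RUNX motif, Itga8 held 1 RUNX motif and Itga5 held 2 GC boxes. The table held 25 start regions of 22 of the 35 genes. The GC box was in 11 of these 25 (35.7% of all 32851 regions of this length), the CCAAT box in 4 (37.4% of all), the TATA box in 0 (13.6% of all), the RUNX motif in 5 (22.4% of all) and the AP-1 motif in 3 (7.81% of all). A match is a run of letters and says nothing of binding.

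Collagen-binding alpha subunits were lower in the libraries labelled cKO for 2 of 4 genes, Itga1 and Itga10, and none was higher (edgeR; none at an unadjusted p under 0.05, and none with DESeq2). The median log2 fold change of the 4 was -0.89. With the length offset it was -0.47, and Itga10 alone was called lower. Itga1 (ENSMUSG00000042284.10), the alpha1 subunit that favours basement membrane collagen, lies at chr13:114953096-115101964 on GRCm38 and had 14.8 and 16.1 CPM in the libraries labelled cKO, against 41.6 and 33.7 CPM in those labelled WT. The groups did not overlap, as was so, with cKO lower, for 36.2% of all genes tested. Means of 15.4 ± 0.918 CPM in the libraries labelled cKO and 37.6 ± 5.53 CPM in those labelled WT (SD, n = 2 each) gave a log2 fold change of -1.29 ± 0.22 (SE, edgeR adjusted p = 0.0139). It shares 3.68% of its exon bases with Gm49395. Its exons span 18599 bases, in the longest group of genes, whose median was -0.76, and with the length offset its log2 fold change was -0.33 (edgeR adjusted p = 0.215).

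Itga10 (ENSMUSG00000090210.7), the alpha10 subunit best known from cartilage, lies at chr3:96645584-96664519 and had 14.6 and 20.6 CPM in the libraries labelled cKO, against 46.1 and 27.4 CPM in those labelled WT. Both libraries labelled cKO were below both labelled WT, among which WT 2 was the higher. The log2 fold change was -1.06 ± 0.30 (SE, edgeR adjusted p = 0.0358), and with the length offset it was -0.95 (edgeR adjusted p = 0.0263). The gene's exon length of 5186 bases falls in a group whose median was -0.07. It shares 33.5% of its exon bases with Gm42957 on the same strand, whose own counts were 0 and 4 in the libraries labelled cKO, against 4 and 8 in those labelled WT. Col2a1, the main collagen of cartilage, was also lower (log2 fold change -1.28, edgeR adjusted p = 0.0383), but not with the length offset (-0.76, edgeR adjusted p = 0.0550).

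Itga11, the alpha11 subunit of fibroblasts and a receptor for collagen I, had 25.5 and 35.6 CPM in the libraries labelled cKO, against 62.3 and 37.8 CPM in those labelled WT. The groups did not overlap, although cKO 3 and WT 3 were close, and the gene did not pass the test (log2 fold change -0.71 ± 0.29 SE, edgeR adjusted p = 0.0958, and -0.60 with the length offset, adjusted p = 0.0921). Itga2, the alpha2 subunit that platelets and epithelia use, had 5.12 and 5.89 CPM in the libraries labelled cKO, against 9.33 and 4.23 CPM in those labelled WT, and these ranges overlap. Leaving out 1 library removed the calls of both genes in some cases: for Itga1 the edgeR adjusted p became 0.0920 when cKO 2 was dropped and 0.0523 when cKO 3 was, and that of Itga10 was 0.260 without cKO 2, 0.0549 without cKO 3 and 0.0609 without WT 2. Itga10 had a log2 fold change of -0.63 without WT 2 and -1.39 without WT 3.

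Fibronectin-binding alpha subunits were lower for 2 of 5 genes, Itga4 and Itga8, and none was higher (edgeR; none at an unadjusted p under 0.05, and none with DESeq2), with a median log2 fold change of -0.44. Neither call held with the length offset, under which edgeR called none of the 5 (2 lower at an unadjusted p under 0.05) and the median was -0.08. Itga5, the alpha5 subunit of the main fibronectin receptor, had the highest level of the alpha subunit genes analysed. Its level was 80.5 CPM per kilobase of exon in the libraries labelled cKO and 65.9 CPM per kilobase in those labelled WT (means, n = 2 each). It had 382 and 413 CPM in the libraries labelled cKO, against 329 and 321 CPM in those labelled WT. Both libraries labelled cKO were above both labelled WT, as for 36.3% of all genes tested, and the log2 fold change of 0.29 ± 0.21 (SE) did not pass the test (edgeR adjusted p = 0.318), nor did its 0.37 with the length offset (edgeR adjusted p = 0.147).

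Itga4 (ENSMUSG00000027009.18), the alpha4 subunit that also binds VCAM-1 on other cells, had 2.78 and 3.31 CPM in the libraries labelled cKO, against 11.1 and 6.35 CPM in those labelled WT. The log2 fold change was -1.52 ± 0.35 (SE, edgeR adjusted p = 0.0215), and -0.71 with the length offset (edgeR adjusted p = 0.0701). The gene spans chr2:79255426-79333123 with 13978 exon bases, and shares 8.04% of them with Cerkl on the other strand, which had 0 and 3 counts in the libraries labelled cKO and 0 and 0 in those labelled WT. Itga8 (ENSMUSG00000026768.10), whose alpha8 subunit binds nephronectin in the embryonic kidney, had 20.5 and 23.7 CPM in the libraries labelled cKO, against 41.7 and 34.0 CPM in those labelled WT. It lies at chr2:12106632-12301922 and shares 5.05% of its exon bases with E030013I19Rik on the other strand, which had 6 and 13 counts in the libraries labelled cKO and 6 and 8 in those labelled WT. Its log2 fold change was -0.78 ± 0.22 (SE, edgeR adjusted p = 0.0341), and -0.44 with the length offset (edgeR adjusted p = 0.0836). Both genes had lower values in each library labelled cKO than in either labelled WT.

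Itga9, whose alpha9 subunit binds tenascin C, had 52.4 and 49.8 CPM in the libraries labelled cKO, against 74.1 and 64.5 CPM in those labelled WT (log2 fold change -0.44, edgeR adjusted p = 0.114, and -0.08 with the length offset). Its ligand gene Tnc was lower (log2 fold change -0.96, edgeR adjusted p = 0.0384), but not with the length offset (-0.57, edgeR adjusted p = 0.0671). Itga2b, which encodes the platelet subunit alphaIIb, had 8.13 and 5.72 CPM in the libraries labelled cKO, against 4.69 and 5.56 CPM in those labelled WT (edgeR adjusted p = 0.289). Summed platelet and megakaryocyte markers were 1.78 and 3.59 CPM in the libraries labelled cKO and 2.74 and 1.77 CPM in those labelled WT. No marker was at 0 in all libraries. Of the 2 tested, Pf4 was higher, at 0.891 and 1.29 CPM in the libraries labelled cKO, against 0.150 and 0.197 CPM in those labelled WT. Its log2 fold change was 2.61 (edgeR adjusted p = 0.0212), and 2.16 with the length offset (edgeR adjusted p = 0.0282). Gp1ba was not called (log2 fold change -0.78, edgeR adjusted p = 0.306). Without cKO 2, the adjusted p of Itga4 was 0.0759 and that of Itga8 was 0.379, and without cKO 3 that of Itga8 was 0.215.

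Among laminin-binding integrins, Itga6 was lower and the other 3 did not pass the test. The 4 genes had a median log2 fold change of -0.78, and -0.45 with the length offset, under which none was called by edgeR (1 lower at an unadjusted p under 0.05, adjusted p 0.112 to 0.311). Itga6 (ENSMUSG00000027111.16), the alpha6 subunit, which pairs with beta1 or beta4, lies at chr2:71745616-71858416 and had 21.3 and 21.0 CPM in the libraries labelled cKO, against 50.4 and 29.1 CPM in those labelled WT. WT 2 was far above the others and WT 3 nearer to the libraries labelled cKO. The log2 fold change was -0.91 ± 0.28 (SE, edgeR adjusted p = 0.0443). It was -0.45 without WT 2 and -1.25 without WT 3, and leaving out cKO 2 or cKO 3 gave adjusted p-values of 0.211 or 0.206. With the length offset the log2 fold change was -0.42 (edgeR adjusted p = 0.138).

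Itga7, the alpha7 subunit that muscle fibres use to hold laminin, had 14.3 and 18.1 CPM in the libraries labelled cKO, against 14.7 and 15.6 CPM in those labelled WT, and these ranges overlap. The 10 muscle markers summed to 163 and 158 CPM in the libraries labelled cKO, against 34.6 and 48.5 CPM in those labelled WT. Of the 8 tested, 5 were higher (62.5%, where 14.1% of all genes were). None was at 0 in all libraries, and their part in Itga7 was not tested. Itgb4, the hemidesmosome subunit beta4, had 2.34 and 1.68 CPM in the libraries labelled cKO, against 4.74 and 3.54 CPM in those labelled WT, and missed the threshold (log2 fold change -1.04, edgeR adjusted p = 0.0589). Schwann cells also carry beta4. Schwann and nerve markers summed to 228 and 256 CPM in the libraries labelled cKO, against 208 and 172 CPM in those labelled WT. Yet 4 of the 6 tested were lower (66.7%, where 14.3% of all genes were), and their part in Itgb4 was not tested. Itga3, the alpha3 subunit of epithelia, had 1.84 and 2.24 CPM in the libraries labelled cKO, against 3.99 and 2.46 CPM in those labelled WT (edgeR adjusted p = 0.215).

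Leukocyte integrins were at low counts in these cells, which were sorted negative for CD45. Of 7 genes, 2 passed the filter, and only Itgb7 (ENSMUSG00000001281.10), the beta7 subunit of gut-homing lymphocytes, was called. It had 0.557 and 0.842 CPM (10 and 15 counts) in the libraries labelled cKO, against 2.19 and 2.90 CPM (44 and 59 counts) in those labelled WT. The log2 fold change was -1.86 ± 0.45 (SE, edgeR adjusted p = 0.0236), and -2.04 with the length offset (edgeR adjusted p = 0.0106). The gene lies at chr15:102215995-102231944, and its exon length of 2770 bases puts it in a group whose median log2 fold change was 0.32, and 0.15 with the offset. Itgal, the alphaL subunit of LFA-1, had 14 and 8 counts in the libraries labelled cKO, against 13 and 9 in those labelled WT. Without cKO 2 the adjusted p of Itgb7 was 0.154, and without cKO 3 it was 0.0537.

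The other 5 leukocyte genes could not be tested. Itgb2, the beta2 subunit common to white blood cells, had 9 and 17 counts in the libraries labelled cKO, against 3 and 3 in those labelled WT, while Itgae had 1 and 4 counts in the libraries labelled cKO, against 6 and 11 in those labelled WT. Itgam had 0 and 3 counts in the libraries labelled cKO, against 1 and 0 in those labelled WT, and Itgax had 0 and 0 in the libraries labelled cKO, against 1 and 1 in those labelled WT. Itgad had no count in any library. The 12 haematopoietic markers summed to 22.4 and 22.1 CPM in the libraries labelled cKO, against 14.6 and 18.5 CPM in those labelled WT. Of the 9 tested, 5 were higher and 1 was lower (55.6% and 11.1%, where 14.1% and 14.3% of all genes were). Ptprc, which encodes CD45, had 0.167 and 0.168 CPM in the libraries labelled cKO, against 0.0499 and 0.148 CPM in those labelled WT. The part of such cells in the leukocyte integrin values was not tested, and in bulk RNA fewer cells of a type and less RNA per cell cannot be told apart.

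Among the remaining beta subunits, Itgb3 was higher in the libraries labelled cKO and 3 of the 4 tested did not pass the test. Itgb1, the common partner of most alpha subunits, had the highest level of the integrin genes analysed. Its level was 134 CPM per kilobase in the libraries labelled cKO and 121 CPM per kilobase in those labelled WT (means). It had 574 and 517 CPM in the libraries labelled cKO, against 527 and 463 CPM in those labelled WT, with overlapping ranges (log2 fold change 0.14 ± 0.22 SE, edgeR adjusted p = 0.654). Itgb3 (ENSMUSG00000020689.4), the beta3 subunit of receptors for vitronectin and, in platelets, for fibrinogen, lies at chr11:104608000-104670476 and had 69.4 and 54.4 CPM in the libraries labelled cKO, against 37.6 and 24.9 CPM in those labelled WT. The groups did not overlap, with means of 61.9 ± 10.6 CPM in the libraries labelled cKO and 31.3 ± 8.98 CPM in those labelled WT (SD, n = 2 each). The log2 fold change was 0.99 ± 0.26 (SE, edgeR adjusted p = 0.0285), and 1.18 with the length offset (edgeR adjusted p = 0.00682). Vtn, the gene for vitronectin, was also higher (log2 fold change 0.92, edgeR adjusted p = 0.0391), but not with the length offset (0.63, edgeR adjusted p = 0.0952).

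Itgb5, the beta5 subunit of a further vitronectin receptor, had 371 and 388 CPM in the libraries labelled cKO, against 224 and 267 CPM in those labelled WT. Both libraries labelled cKO were higher, yet the gene missed the threshold (log2 fold change 0.63 ± 0.22 SE, edgeR adjusted p = 0.0598), while DESeq2 called it (adjusted p = 0.0259). With the length offset its log2 fold change was 0.53 (edgeR adjusted p = 0.0503). Itgb8, which takes part in activating TGF-beta, had 3.90 and 4.15 CPM in the libraries labelled cKO, against 9.68 and 5.27 CPM in those labelled WT (log2 fold change -0.89, edgeR adjusted p = 0.0872, and -0.25 with the length offset). Itgb6, the epithelial beta6 subunit, had 2 and 2 counts in the libraries labelled cKO, against 1 and 1 in those labelled WT. For Itgb3, leaving out cKO 2 or cKO 3 gave adjusted p-values of 0.252 or 0.0891.

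**Figure D2:**
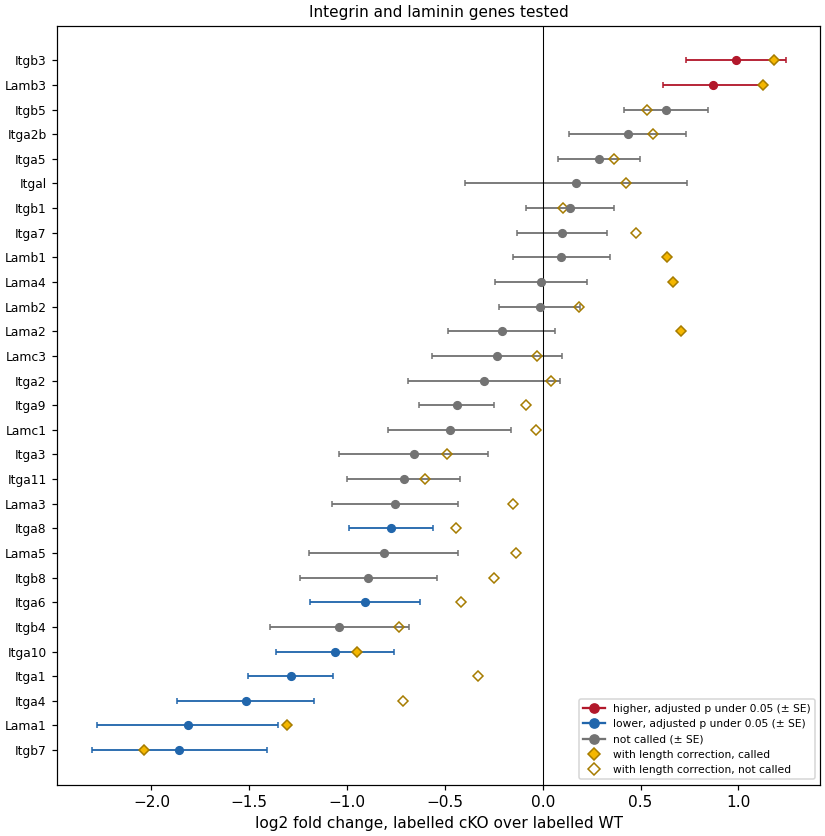
Log2 fold change (labelled cKO over labelled WT, edgeR) of each integrin and laminin gene that passed the filter. Circles with SE bars are without the length offset (red, called higher; blue, called lower; grey, not called) and diamonds are with it (filled where called). Itgb3 and Lamb3 lie to the right of 0 and Itgb7 and Lama1 to the left under both, while Itga1, Itga4, Itga8 and Itga6 move toward 0 with the offset.

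Levels per kilobase show which chains made up most of the level among the genes analysed, and these shares and ratios are without the length offset. Itga5 accounted for 75.5% and 74.5% of the summed level of the alpha subunit genes analysed in the libraries labelled cKO, against 57.3% and 64.9% in those labelled WT. Collagen-binding alpha subunits took 9.06% and 11.2% in the libraries labelled cKO, against 21.1% and 15.0% in those labelled WT. Laminin-binding alpha subunits took 4.34% and 4.41% in the libraries labelled cKO, against 6.95% and 5.55% in those labelled WT. These shares did not overlap between the groups, and they carry no test because a change in 1 gene moves all shares and because 2 against 2 libraries cannot go below p = 0.333 in a two-sided exact permutation test.

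Within beta subunits, Itgb1 held 54.5% and 51.4% in the libraries labelled cKO, against 64.3% and 58.2% in those labelled WT, and Itgb5 held 40.5% and 44.3% in the libraries labelled cKO, against 31.3% and 38.6% in those labelled WT. Itgb3 held 4.56% and 3.75% in the libraries labelled cKO, against 3.17% and 2.16% in those labelled WT. The ratio of Itgb3 to Itgb1 per kilobase was 0.0836 and 0.0729 in the libraries labelled cKO, against 0.0493 and 0.0372 in those labelled WT. The ratio of Itga5 to Itga1 was 97.6 and 97.0 in the libraries labelled cKO, against 29.9 and 35.9 in those labelled WT. These genes lie far apart in exon length, and the difference between their log2 fold changes was 1.58 without the length offset and 0.70 with it, against 0.85 and 1.07 for Itgb3 and Itgb1.

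**Figure D3:**
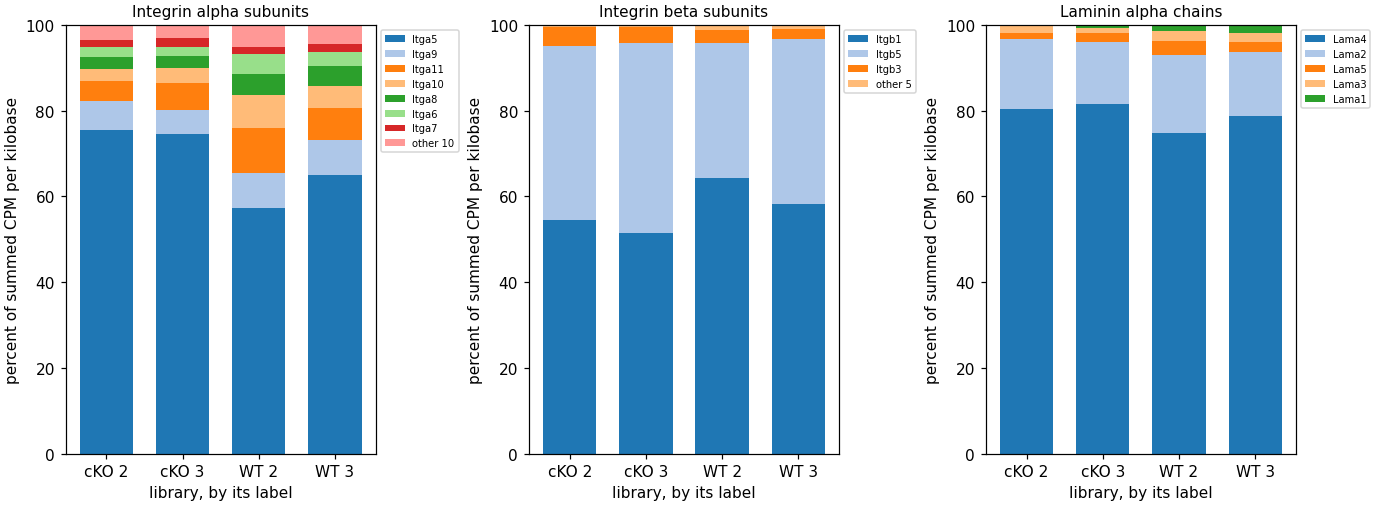
Share of the summed level (CPM per kilobase of exon) taken by each gene within the integrin alpha subunits (left), integrin beta subunits (middle) and laminin alpha chains (right), as a percent for each library. Itga5 takes 74.5% to 75.5% of the level of the alpha subunit genes analysed in the libraries labelled cKO, and 57.3% to 64.9% in those labelled WT.

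Of the laminin alpha chains, Lama1 was lower and the other 4 did not pass the test. Lama4, the alpha4 chain of vessel and mesenchymal laminins, took 80.4% and 81.5% of the summed alpha chain level in the libraries labelled cKO, against 74.9% and 78.8% in those labelled WT. It had 344 and 334 CPM in the libraries labelled cKO, against 394 and 289 CPM in those labelled WT, so that the 2 labelled WT lay on either side of the others (log2 fold change -0.01 ± 0.23 SE, edgeR adjusted p = 0.975). Its exons are in the longest group of genes, and with the length offset its log2 fold change was 0.67 (edgeR adjusted p = 0.0233). Endothelial markers summed to 71.0 and 78.9 CPM in the libraries labelled cKO, against 68.4 and 63.1 CPM in those labelled WT. In this sum Tek, which was not called, had 34.6 and 28.8 CPM in the libraries labelled cKO, against 39.7 and 33.7 CPM in those labelled WT. Of the 10 tested, 1 was higher (Egfl7), where 14.1% of all genes were. With the length offset 2 were higher (Egfl7 and Tie1), where 17.0% of all genes were. The part of these markers in Lama4 was not tested.

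Lama2, the alpha2 chain of muscle and nerve laminins, had 94.8 and 80.1 CPM in the libraries labelled cKO, against 128 and 74.2 CPM in those labelled WT, and the ranges overlap. The log2 fold change was -0.21 ± 0.27 (SE, edgeR adjusted p = 0.576), and 0.71 with the length offset (edgeR adjusted p = 0.0168). Lama1 (ENSMUSG00000032796.8), the alpha1 chain of early embryonic basement membranes, lies at chr17:67697259-67822647 and had 0.891 and 2.53 CPM (16 and 45 counts) in the libraries labelled cKO, against 6.63 and 5.42 CPM (133 and 110 counts) in those labelled WT. The groups did not overlap, and cKO 2 was lower than cKO 3. Its log2 fold change was -1.82 ± 0.46 (SE, edgeR adjusted p = 0.0270), and -1.31 with the length offset (edgeR adjusted p = 0.0463). Without cKO 2 its adjusted p was 0.133, and without WT 2 it was 0.0522. Its log2 fold change ranged widely with the library left out, at -1.25 without cKO 2 and -2.77 without cKO 3.

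Lama3 and Lama5, chains of epithelial laminins, were not called. Lama5 had 5.51 and 8.08 CPM in the libraries labelled cKO, against 16.1 and 7.78 CPM in those labelled WT, with overlapping ranges (edgeR adjusted p = 0.138). Lama3 had 6.23 and 4.43 CPM in the libraries labelled cKO, against 10.9 and 7.14 CPM in those labelled WT (edgeR adjusted p = 0.107). Lama3 and Lamb3 belong to the laminin of skin hemidesmosomes. Keratinocyte markers summed to 10.5 and 8.47 CPM in the libraries labelled cKO, against 10.9 and 11.3 CPM in those labelled WT. Of the 6 tested, 1 was lower (16.7%, where 14.3% of all genes were) and none was higher.

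Of the laminin beta chains, Lamb3 was higher and the other 2 did not pass the test. Lamb1 and Lamb2, the chains shared by most laminins, held nearly all of the beta chain level, with Lamb1 at 49.6% and 47.4% in the libraries labelled cKO, against 49.9% and 43.2% in those labelled WT. Lamb1 had 495 and 485 CPM in the libraries labelled cKO, against 537 and 380 CPM in those labelled WT (log2 fold change 0.10, edgeR adjusted p = 0.784), and with the length offset its log2 fold change was 0.63 (edgeR adjusted p = 0.0315). Lamb2 had 301 and 322 CPM in the libraries labelled cKO, against 326 and 303 CPM in those labelled WT, with overlapping ranges. Lamb3 (ENSMUSG00000026639.18), the beta3 chain of epithelial laminin, lies at chr1:193207699-193343878 and had 9.24 and 9.54 CPM in the libraries labelled cKO, against 5.39 and 4.87 CPM in those labelled WT. Its means were 9.39 ± 0.212 CPM in the libraries labelled cKO and 5.13 ± 0.363 CPM in those labelled WT (SD, n = 2 each). Its log2 fold change was 0.87 ± 0.26 (SE, edgeR adjusted p = 0.0393), and 1.13 with the length offset (edgeR adjusted p = 0.0101). DESeq2 gave it an adjusted p of 0.0581, and without cKO 2 or cKO 3 the edgeR adjusted p was 0.222 or 0.257.

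Neither of the 2 laminin gamma chain genes analysed passed the test (edgeR; none at an unadjusted p under 0.05, and none with DESeq2). Lamc1, the gamma chain of nearly all laminins, held 97.9% and 96.4% of their summed level in the libraries labelled cKO, against 98.0% and 96.8% in those labelled WT. It had 279 and 282 CPM in the libraries labelled cKO, against 514 and 265 CPM in those labelled WT, where WT 2 was far above the other 3 libraries (log2 fold change -0.48 ± 0.31 SE, edgeR adjusted p = 0.273). Lamc3 had 4.34 and 7.63 CPM in the libraries labelled cKO, against 7.63 and 6.45 CPM in those labelled WT.

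**Figure D4:**
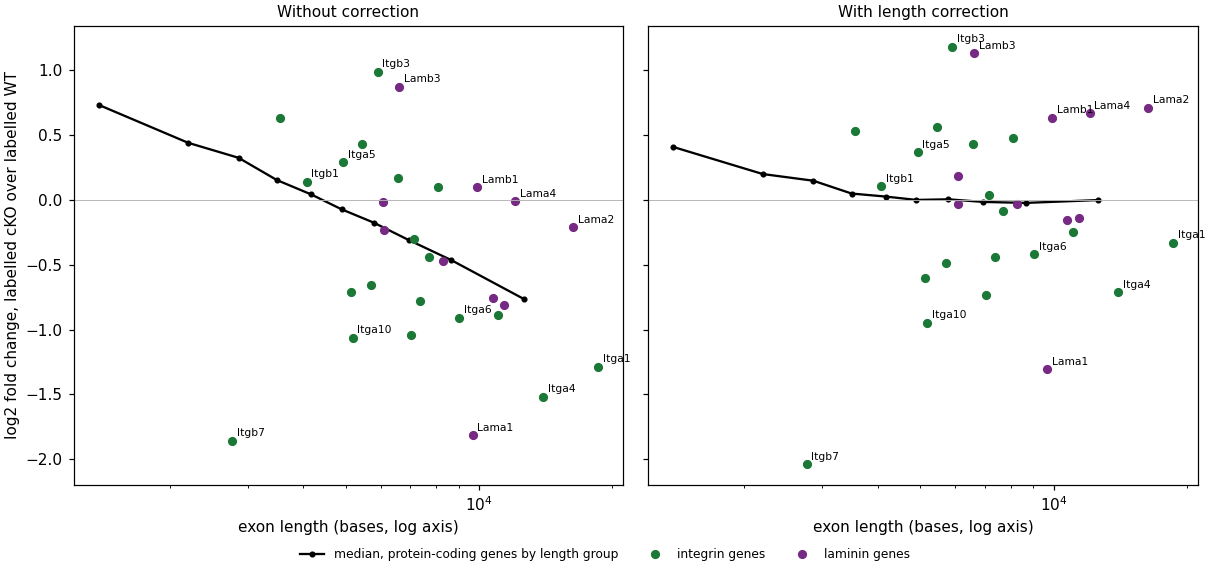
Log2 fold change (labelled cKO over labelled WT) of integrin and laminin genes against exon length on a log axis, without the offset (left) and with it (right). The black line gives the median of protein-coding genes in 10 groups by length, which runs from 0.73 to -0.76 without the offset and lies near 0 in the longer groups with it.

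In the plot of fold change against exon length, 7 of the 9 called genes lay below 0 without the offset. The log2 fold changes of Itga10, Itgb7 and Lama1 stayed far below the median of genes of their own length, and those of Itgb3 and Lamb3 stayed above it. By contrast Lama2, Lama4 and Lamb1, all with long exons and not called without the offset, were called higher with it. Under the offset, dropping cKO 2 or cKO 3 gave log2 fold changes of 0.59 or 0.83 for Lama2. They were 0.66 or 0.69 for Lama4 and 0.63 or 0.65 for Lamb1. The calls were lost in these fits, where the libraries labelled WT alone set the spread. The edgeR adjusted p of Lamb1 was 0.0537 with the replicate block and the offset. Among the other genes called under the offset, Itgb3 alone kept its call with any 1 library dropped. Itga10 lost it without cKO 2 (edgeR adjusted p = 0.207) and without WT 2 (log2 fold change -0.57, edgeR adjusted p = 0.112), and Itgb7 lost it without cKO 2 (edgeR adjusted p = 0.0798). Lamb3 lost it without cKO 2 or cKO 3 (edgeR adjusted p = 0.0515 or 0.0602). Lama1 kept it only without cKO 3 (log2 fold change -2.24), and without cKO 2 its log2 fold change was -0.73.

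Partner genes were counted in the same way. Of 28 integrin adaptor and signalling genes, 27 were tested, 5 were higher and 2 were lower (18.5% and 7.41%, where 14.1% and 14.3% of all genes were), with a median log2 fold change of -0.10. Under the offset 4 were higher and 1 was lower, where 17.0% and 12.3% of all genes were, and the median was 0.27. Those with the smallest p were Itgb1bp1, whose protein binds the beta1 tail (log2 fold change 1.25, edgeR adjusted p = 0.0182), Lims2, a PINCH protein of the complex with ILK (1.47, 0.0183), Tns3, a tensin (-1.29, 0.0277), and Tln2, a talin (-0.94, 0.0315). Tns3 under the offset was at -0.62 (edgeR adjusted p = 0.0616) and Tln2 at 0.05, and neither was called. Of 20 basement membrane partners of laminins, 19 were tested and none was higher (edgeR, 1 at an unadjusted p under 0.05, and none with DESeq2). The 2 that were lower (10.5%, where 14.3% of all genes were) were Frem1 (log2 fold change -1.58, edgeR adjusted p = 0.0133) and Fras1 (-1.18, 0.0486). Their proteins join skin epithelium to mesenchyme. Under the offset 1 partner was higher and 1 was lower, Frem1 was at -0.80 (edgeR adjusted p = 0.0113) and Fras1 at -0.16 (edgeR adjusted p = 0.632). Of 16 ligands, 1 was higher and 3 were lower (6.25% and 18.8%, where 14.1% and 14.3% of all genes were). Among the lower ones was Thbs1, the gene for thrombospondin 1 (log2 fold change -1.23, edgeR adjusted p = 0.0320). Under the offset 3 of the 16 were higher (Col1a2, Col3a1 and Postn), where 17.0% of all genes were. Thbs1 alone was lower (log2 fold change -1.01, edgeR adjusted p = 0.0249), where 12.3% of all genes were.

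Pericyte and smooth muscle markers summed to 874 and 866 CPM in the libraries labelled cKO, against 1046 and 634 CPM in those labelled WT. Of the 8 tested, 2 were higher and 4 were lower (edgeR), where 14.1% and 14.3% of all genes were. Acta2 (log2 fold change 1.84) and Kcnj8 were higher, while Rgs5 (-1.84), Abcc9, Mcam and Myh11 were lower, so the sum joins opposite changes. With the length offset 2 were higher and 3 were lower, where 17.0% and 12.3% of all genes were. No marker of any list was at 0 in all libraries, and the part of such cells in the integrin and laminin values was not tested.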

How the data were processed

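RNA of sorted skeletal progenitors was sequenced in 4 libraries. The values deposited by the authors are raw counts of reads per gene, without normalization. The methods of the study name STAR, featureCounts and mm10, whereas the submitters' processing notes name STAR 2.6.1b, HTSeq 0.11.3 and the human build GRCh38.p12; the file does not say which applies. Strand was not marked by the library protocol as described. Of the gene identifiers, 99.53% matched GENCODE vM21 on GRCm38, which gave positions and exon lengths. From these families, 2 further genes are not reported here.

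Genes kept by filterByExpr at a minimum count of 10 (16157 genes) were scaled by TMM and tested by quasi-likelihood in edgeR 4.0.16 on R 4.3.3, with the call set at 0.05 after Benjamini-Hochberg adjustment. CPM used TMM-scaled library sizes. The length offset was a lowess curve (span 0.3) of log2(CPM + 0.5) on log10 exon length in each library, entered in the same test. Alternatives were DESeq2 1.42.0, ashr 2.2.63, other scalings and filters, a 1.5-fold limit, a replicate block, and each library left out; the crossed pairing and the offset with a library left out were added after the data were seen. The test was checked on simulated counts. Values are given for every gene called and for the 2 genes of highest level per kilobase in each class, for called partner genes up to 4 per list, and for the remaining genes by their values or counts. The 2 families, though selected by gene name, and the classes and lists were chosen with earlier results of these data known. Total counts limit precision for genes with few counts; SDs and SEs include the spread between libraries.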

Additional observations from a re-analysis of the deposited data

How the results depend on the processing

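The 9 calls kept their direction under every alternative tried. A fit with 1 library left out takes its spread from the group that keeps 2 libraries. With each library left out in turn, 0 of the 9 calls held without cKO 2, 2 without cKO 3, 7 without WT 2 and 9 without WT 3; over these fits, with and without the length offset, higher integrin genes numbered 0 to 3, lower integrin genes 0 to 12, higher laminin genes 0 to 4 and lower laminin genes 0 to 5. The count of 0 without cKO 2 (edgeR) stood beside 1 higher and 5 lower integrin genes and 0 higher and 2 lower laminin genes at an unadjusted p under 0.05. With no filter on low counts, edgeR called 0 higher and 1 lower integrin gene and 0 and 0 laminin genes (3, 8, 1 and 1 at an unadjusted p under 0.05). DESeq2 called 2 higher integrin genes and 0 higher laminin genes, and DESeq2 with ashr and the 1.5-fold limit called 0 higher laminin genes (1 unadjusted in both). With the length offset 2 integrin genes were lower and 4 laminin genes higher. The libraries share replicate numbers, but deviations of same-numbered libraries had a correlation of -0.101 over genes, so the numbers were not taken as pairs: the replicate block gave 1 higher and 8 lower integrin genes and 1 and 1 laminin genes, and the replicate block with the length offset gave 3 lower integrin genes and 3 higher laminin genes. The crossed pairing, tried after seeing the data, gave 9 lower integrin genes and 2 lower laminin genes. Genes that were not called and changed sign were, with the length offset alone and with the replicate block added, Itga2 (0.040 and 0.10), Lama2 (0.71 and 0.71), Lama4 (0.67 and 0.67) and Lamb2 (0.19 and 0.19), and Lamc1 with both (0.0024). With no filter Lama4 was 0.023 and Lamb2 0.021, and Lama4 was 0.0067 with the replicate block and 0.0067 with the crossed one. With 1 library left out, with or without the length offset, log2 fold changes ran from -0.76 to 0.57 for Itga2, -0.095 to 0.68 for Itga7, -0.28 to 0.78 for Itgal, -0.55 to 0.83 for Lama2, -1.02 to 0.077 for Lama3, -0.21 to 0.69 for Lama4, -1.24 to 0.21 for Lama5, -0.13 to 0.70 for Lamb1, -0.081 to 0.24 for Lamb2, -0.87 to 0.33 for Lamc1 and -0.71 to 0.33 for Lamc3. Without the offset, leaving out 1 library gave -1.02 to -0.41 for Lama3 and -1.24 to -0.19 for Lama5, with no change of sign, and at most 0.38 for Itga2 and 0.24 for Lama2. The causes were not tested. Genes with few counts, such as Itgal, Itgb7 and the genes that could not be tested, are limited by depth.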
